A study of Homo sapiens with 46 samples.

Results

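The mitosis genes described here were 40 protein-coding genes that build or control the mitotic spindle, taken by gene symbol from the gene tables deposited for human pluripotent stem cells and the 3 germ layers made from them. Of these 40 genes, 39 were listed in the table of pluripotent cells, 40 in that of ectoderm, 38 in that of endoderm and 40 in that of mesoderm, among 21166 Ensembl genes listed in at least 1 of the 4 tables, and 37 were listed in all 4. KNL1 was not listed in the pluripotent cells, and CENPC and NUF2 were not listed in endoderm. The genes were represented by 112 assembled isoforms in ectoderm, 105 in mesoderm, 80 in the pluripotent cells and 67 in endoderm. They were matched by symbol, not by any measured value.

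Before a cell divides, the cyclin-dependent kinase CDK1 and its partner cyclins A and B drive entry into mitosis, and Aurora and Polo-like kinases set up the spindle. The kinetochore, built on the CENP-A nucleosomes of each centromere, ties chromosomes to spindle microtubules, while kinesin motors slide, shorten and cross-link those microtubules. The spindle checkpoint, of which BUB1, BUB1B, BUB3 and TTK are parts, holds back the anaphase-promoting complex and its activator CDC20 until every chromosome is attached, after which separase (ESPL1) cuts cohesin. Most of these genes are transcribed late in the cell cycle under the DREAM and B-MYB-FOXM1 complexes, and pluripotent stem cells, which divide fast, are known for high levels of their mRNAs.

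All groups came from H1, an established human embryonic stem cell line grown on Matrigel in mTeSR1. The undifferentiated cells are called hPSC below. Endoderm was made with WNT3A and Activin A (100 ng/ml), mesoderm with VEGF (100 ng/ml), BMP4 (100 ng/ml) and bFGF (10 ng/ml) plus Activin A (100 ng/ml) on the first day only, and ectoderm with the inhibitors A83-01, PNU-74654 and Dorsomorphin (2 µM each) in serum replacement medium, each collected after 5 days. A detergent lysis gave the cytoplasm, a sucrose cushion spin gave the nuclei, and lysis of part of these with urea and detergent split them into a soluble nucleoplasm and a chromatin pellet. RNA of the 4 fractions of each of the 4 cell types was sequenced in 46 libraries, with 3 libraries a group except 1 for the nucleoplasm of mesoderm, and each library held between 4990408 and 21298678 counts. The labels give no separate cultures, so p-values measure the spread between these samples, which may be technical. H1 is 1 line from 1 donor, so the groups are a model of that line only.

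Cell type markers followed the labels in part. POU5F1, the core pluripotency factor, had a mean of 2954 CPM in the cytoplasm of hPSC, 1765 in that of endoderm, 892 in that of mesoderm and 6.22 in that of ectoderm. CPM is the count per 1000000 counts of the library's total. PAX6 reached 203 CPM in the cytoplasm of ectoderm, SOX17 158 CPM in that of endoderm and HAND1 132 CPM in that of mesoderm. HAND1 was also at 58.1 CPM in endoderm. Among the other ectoderm markers, OTX2, LHX2 and SIX3 were at 146 to 191 CPM in ectoderm, ZIC1 at 0.36 CPM, and SOX1 was not listed. All 6 endoderm markers were listed in endoderm, with CXCR4 lowest at 3.96 CPM. In mesoderm 4 of 6 mesoderm markers were listed, without MESP1 and KDR. Of the 6 only HAND1 had its highest cytoplasm mean in mesoderm. TBX6 stood at 3.90 CPM in the cytoplasm of mesoderm and 7.02 in that of hPSC. PDGFRA stood at 2.98 CPM in that of mesoderm and 5.35 in that of endoderm, and TBXT at 0.13 and 4.94 CPM. KDR was at 25.2 CPM in the cytoplasm of hPSC. Summed over the pluripotency markers listed in each table, the cytoplasm held 5785 to 6165 CPM in hPSC, 4305 to 4755 in endoderm, 2616 to 2734 in mesoderm and 2019 to 2551 in ectoderm. Fraction markers went partly against the labels. MALAT1, a long noncoding RNA kept in the nucleus, averaged 232 CPM in the libraries labelled cytoplasm and 81.6 in those labelled nucleus of hPSC. It averaged 1661 against 168 CPM in ectoderm, 126 against 130 in endoderm and 172 against 318 in mesoderm. In endoderm its nucleus libraries lay both below and above all cytoplasm libraries (93.4 to 170 CPM). The nuclear marker NEAT1 was also higher in cytoplasm in hPSC (3.27 against 1.22 CPM) and ectoderm (37.2 against 5.31). In ectoderm KCNQ1OT1 and MEG3 were too. At low levels, MEG3 followed the label in hPSC (1.01 against 1.59 CPM) and endoderm (0.44 against 1.05). So did KCNQ1OT1 in endoderm (0.84 against 1.80). In mesoderm all were higher in nucleus on average. The cytoplasmic mRNAs RPLP0, EEF1A1, GAPDH and ACTB were higher in the libraries labelled cytoplasm in hPSC, endoderm and mesoderm. RPLP0 averaged 4762 against 1562, 3612 against 1223 and 4566 against 537 CPM there, in this order. In ectoderm it averaged 4227 against 5375 CPM, GAPDH and ACTB were lower on average too, and EEF1A1 was higher on average. Mitochondrial transcripts, which belong to the cytoplasm, made up 13.1 to 15.3% of counts in the libraries labelled nucleus in hPSC, 8.15 to 10.2% in ectoderm and 8.09 to 16.1% in endoderm, against 0.399 to 1.58% in the libraries labelled cytoplasm of these cell types. In mesoderm they made up 1.11 to 1.36% of the libraries labelled nucleus and 5.84 to 7.46% of those labelled cytoplasm. The part of these markers in the results below was not tested, and each fraction name below stands for the label only. The columns of the nucleus libraries are coded Nei in the tables, a code that no sample label explains. They were read as nucleus because the other 3 codes (cp, Np and ch) fit cytoplasm, nucleoplasm and chromatin, so this assignment is an inference.

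Stretches upstream of 6 transcription starts are shown for genes named in the comparisons below, some of them higher in cytoplasm than in nucleus (CCNB2, PLK1) and some lower (ESPL1, INCENP) in hPSC. They show motifs known from cell cycle promoters, and no link between these motifs and the fractions was tested. They are RefSeq sequences on GRCh38.p14, each the 120 bases before the start, 5′ to 3′ on the gene's own strand. Capitals mark TTTGAA, the core of the cell cycle homology region bound by DREAM, and CCAAT or its reverse complement ATTGG, the box bound by NF-Y. CCNB2 lies at chr15:59105026-59105145 (plus strand), PLK1 at chr16:23678769-23678888 (plus), KIF23 at chr15:69414229-69414348 (plus), MKI67 at chr10:128126424-128126543 (minus), ESPL1 at chr12:53268179-53268298 (plus) and INCENP at chr11:62123891-62124010 (plus).
CCNB2: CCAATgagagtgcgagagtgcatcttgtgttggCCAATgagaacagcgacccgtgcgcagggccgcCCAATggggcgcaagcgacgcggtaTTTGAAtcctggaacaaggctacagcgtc
PLK1: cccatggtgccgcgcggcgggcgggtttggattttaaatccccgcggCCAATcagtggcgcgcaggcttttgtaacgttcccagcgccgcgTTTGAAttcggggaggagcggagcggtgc
KIF23: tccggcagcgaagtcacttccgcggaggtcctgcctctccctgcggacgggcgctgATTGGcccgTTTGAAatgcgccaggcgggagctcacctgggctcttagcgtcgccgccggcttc
MKI67: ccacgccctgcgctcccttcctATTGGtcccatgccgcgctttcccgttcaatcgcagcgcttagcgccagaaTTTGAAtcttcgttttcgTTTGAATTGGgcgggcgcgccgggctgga
ESPL1: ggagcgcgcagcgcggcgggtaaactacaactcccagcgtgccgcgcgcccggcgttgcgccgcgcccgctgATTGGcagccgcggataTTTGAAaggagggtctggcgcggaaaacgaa
INCENP: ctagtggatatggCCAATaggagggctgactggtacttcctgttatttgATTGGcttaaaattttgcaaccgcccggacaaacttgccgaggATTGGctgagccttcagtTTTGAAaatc
The first base of TTTGAA stood at -29 from the start in CCNB2 and PLK1, at -31 in ESPL1, at -55 in KIF23, at -10 in INCENP, and at -47 and -29 in MKI67, whose last run of capitals holds a TTTGAA and an ATTGG that overlap. Windows from 250 bases before to 50 after the start were found for 33 of the 40 genes. These genes had 38 windows, since some have more than 1 start. On either strand, TTTGAA or TTCGAA was present in 28 of the 38 windows, beside 16.4% of all 35116 windows, CCAAT in 28, beside 34.6% of all, and both in 22, beside 6.38% of all. Counted per gene, with a match in any of its windows, these were 26, 26 and 21 of the 33 genes. AURKB, CCNA2, CCNB1, CENPE, CENPI, KIF20A and KIF2C had neither TTTGAA nor TTCGAA in the window. These matches describe letters only, and no binding was measured.

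Together the 40 genes made up a larger share of the RNA labelled cytoplasm than of that labelled nucleus in hPSC, ectoderm and endoderm, and a smaller one in mesoderm. Their summed level in hPSC was 3149 ± 69.2 CPM (SD, n = 3) in cytoplasm and 2212 ± 85.6 CPM in nucleus. In ectoderm it was 4238 ± 354 CPM in cytoplasm and 2748 ± 218 CPM in nucleus, and in endoderm 3169 ± 72.9 CPM and 1652 ± 236 CPM. In mesoderm it was 2720 ± 163 CPM in cytoplasm and 3792 ± 150 CPM in nucleus. No library of one fraction overlapped with those of the other in any of the 4 cell types. In these bulk libraries, fewer dividing cells and less of each mRNA per cell cannot be told apart.

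**Figure D1:**
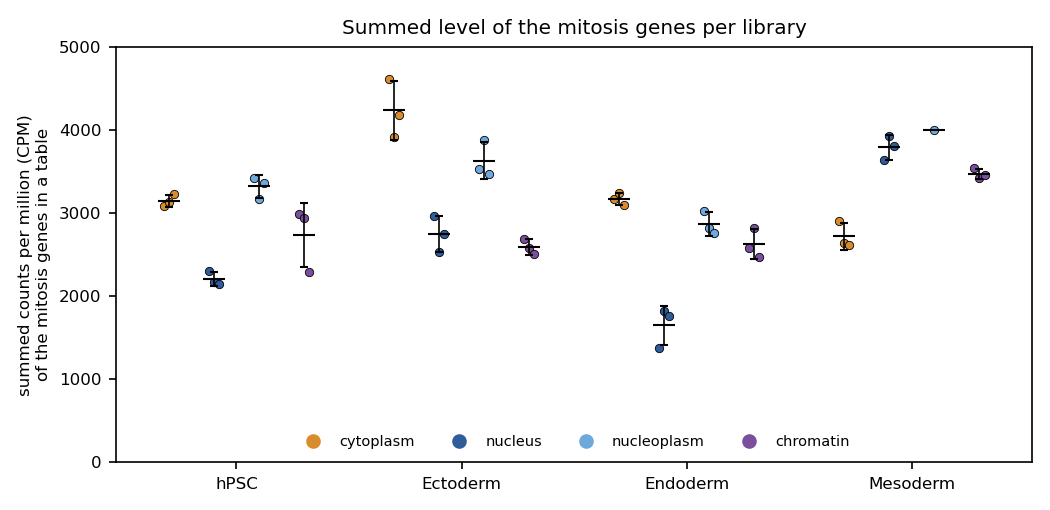
Summed level of the listed mitosis genes in each library (vertical axis, CPM of the library total) for the 4 fractions of the 4 cell types. Points are libraries and bars are the mean with the SD. In hPSC, ectoderm and endoderm the cytoplasm lies above the nucleus, and in mesoderm the nucleus (3792 CPM on average) lies above the cytoplasm (2720 CPM).

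Per unit length, in TPM (transcripts per 1000000, corrected for length), CDC20 was the most abundant of the mitosis genes in the cytoplasm of all 4 cell types, at a mean of 209 TPM in ectoderm, 166 in both hPSC and endoderm, and 117 in mesoderm. The median mitosis gene of hPSC stood at 20.0 TPM in cytoplasm and 16.4 in nucleus, that of ectoderm at 22.9 and 12.6, that of endoderm at 23.0 and 11.9, and that of mesoderm at 17.1 and 47.2. At the low end CENPC, which anchors the inner kinetochore, had 0.33 TPM in the cytoplasm of hPSC, and KNL1, the scaffold to which BUB1 binds, was listed at 0 in that of endoderm, where too few of its reads were counted for a test.

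In hPSC, mRNAs of the mitotic kinases and cyclins were higher in the libraries labelled cytoplasm than in those labelled nucleus, all 9 of 9 of them, and so were several kinetochore and kinesin mRNAs. Of 39 genes tested, 23 were higher in cytoplasm and 4 lower, where 65.6% of all genes tested were called (35.2% higher, 30.4% lower). Their median log2 change was 0.71, beside 0.10 over all genes. With log2(TPM + 1), tested by limma, 17 were higher and 6 lower. Counts under such alternative scalings are given throughout without the share of all genes called under them. Here and below, log2 changes come from edgeR's quasi-likelihood test on counts scaled by the trimmed mean of M values (TMM), so they can differ from the ratio of CPM, and a gene was called at a Benjamini-Hochberg adjusted p under 0.05 over all genes of the comparison. Per role, 5 of 8 centromere and kinetochore genes and 5 of 9 motors were higher and none lower, and 2 of 5 checkpoint and anaphase genes were higher and 1 lower.

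CDK1, the kinase that triggers mitosis, had 101, 79.3 and 74.8 CPM in the 3 cytoplasm libraries of hPSC and 30.1, 34.1 and 26.2 CPM in the nucleus libraries. The groups did not overlap, and the log2 change was 1.43 (adjusted p = 0.000258, edgeR). TTK, the checkpoint kinase also called MPS1, had 42, 41.4 and 48.6 CPM in cytoplasm against 10.1, 8.87 and 7.23 CPM in nucleus, a log2 change of 2.26 (SE 0.37, adjusted p = 0.000131). KIF18A, a motor that shortens kinetochore microtubules, rose by 2.18 (SE 0.37, adjusted p = 0.000149), KIF20B, a motor of cytokinesis, by 2.12 (SE 0.37, adjusted p = 0.000192), and NUF2, which pairs with NDC80 at the outer kinetochore, by 2.02 (SE 0.25, adjusted p = 1.03e-05). For each of these genes the lowest cytoplasm library lay above the highest nucleus library.

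CCNB1, cyclin B1, stood at 246, 219 and 218 CPM in cytoplasm and at 157, 141 and 149 CPM in nucleus of hPSC. AURKA, a kinase of the spindle poles, had 80.9, 88.1 and 86.6 CPM against 47.6, 38.2 and 40.7 CPM, and AURKB, its counterpart in the chromosomal passenger complex, 152, 117 and 113 CPM against 74.2, 69.0 and 71.5 CPM. PLK1, the main Polo-like kinase, had 178, 159 and 174 CPM against 99.6, 94.3 and 106 CPM. All 4 were among the 9 kinases and cyclins called, whose log2 changes ran from 0.55 to 2.26.

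Genes lower in the cytoplasm of hPSC were ESPL1, INCENP, MKI67 and ANLN. ESPL1, which encodes separase, had 45.0, 46.3 and 54.4 CPM in cytoplasm and 119.7, 118 and 114 CPM in nucleus, without overlap (log2 change -1.34, SE 0.15, adjusted p = 3.30e-06, edgeR). INCENP, the scaffold of the passenger complex, had 12, 14.8 and 16.0 CPM against 27.0, 34.6 and 34.4 CPM (log2 -1.24, SE 0.17, adjusted p = 2.92e-05). MKI67, which coats mitotic chromosomes and gives the Ki-67 proliferation marker, had 52.2, 68.3 and 79.3 CPM against 136, 147 and 124 CPM (log2 -1.10, SE 0.19, adjusted p = 0.000207). For ANLN, the contractile ring protein anillin, the change of -0.997 (SE 0.32, adjusted p = 0.0132) became -0.89 with an adjusted p of 0.0513 without the first cytoplasm library.

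In ectoderm and endoderm, too, most of the mitosis mRNAs that differed were higher in cytoplasm. In ectoderm 26 of 40 genes were higher in cytoplasm and 5 lower, where 54.3% of all genes were called (27.5% higher, 26.8% lower), with a median of 0.64 beside 0.00 over all genes. All 9 of 9 centromere and kinetochore genes were higher there, with a median log2 change of 1.82. In endoderm 22 of 37 genes were higher and 5 lower, where 69.9% of all genes were called (34.4% higher, 35.6% lower), with a median of 0.96 beside 0.01, and all 6 of 6 centromere and kinetochore genes were higher, with a median of 1.25. With counts scaled by library total in place of TMM, 29 genes were higher and none lower in ectoderm, and 30 were higher and 2 lower in endoderm. In ectoderm 26 were higher and none lower with log2(TPM + 1). The shares of all genes called under these scalings are not given here, so whether such splits are particular to the mitosis genes was not tested.

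The largest rises in ectoderm were those of KIF18A (log2 change 3.59, SE 0.41, adjusted p = 1.13e-05, edgeR), CENPE, a kinetochore motor (3.55, SE 0.44, adjusted p = 2.49e-05), KIF14 (3.21, SE 0.36, adjusted p = 9.63e-06) and KIF20B (3.01, SE 0.31, adjusted p = 4.98e-06). CENPE had 77.6, 48.9 and 54.0 CPM in cytoplasm and 8.79, 1.13 and 4.24 CPM in nucleus, so the lowest cytoplasm library was several times the highest nucleus library. CENPF, a kinetochore and nuclear matrix protein, had 188, 151 and 159 CPM against 34.4, 9.67 and 19.2 CPM (log2 2.74), and TOP2A, the topoisomerase that untangles sister chromatids, 634, 480.0 and 485 CPM against 332, 131 and 271 CPM (log2 0.83). The second nucleus library was the lowest of its group for CENPE, CENPF and TOP2A. CDK1 had 171, 111 and 149 CPM in cytoplasm and 32.0, 14.0 and 24.4 CPM in nucleus (log2 2.32, adjusted p = 5.19e-07).

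The falls in ectoderm were small. ESPL1 (log2 -0.56), KIF22, a motor that binds chromosome arms (-0.53), KIF4A, which binds condensed chromosomes (-0.47), and TPX2, which activates AURKA on the spindle (-0.39), were called lower. None of these 4 calls was kept with scaling by library total or with TPM, and the libraries of ESPL1, KIF4A and TPX2 overlapped between the fractions in CPM. TPX2 also lost its call without the second nucleus library or the first cytoplasm library, with a range of -0.44 to -0.22 over the 6 fits that leave out 1 library and a highest adjusted p of 0.0675.

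In endoderm the largest rises were those of KIF18A (log2 3.06, SE 0.36, adjusted p = 2.19e-06, edgeR), TTK (2.86, SE 0.18, adjusted p = 4.24e-09), CDK1 (2.62, SE 0.34, adjusted p = 7.18e-06) and KIF11, the motor that pushes spindle poles apart (2.46, SE 0.27, adjusted p = 1.33e-06). CDK1 had 134, 130.0 and 103 CPM in cytoplasm and 3.02, 16.9 and 19.2 CPM in nucleus, and TTK 50.9, 53.6 and 46.2 CPM against 3.16, 5.87 and 3.88 CPM. The groups of both genes were far apart, and the first nucleus library was the lowest. BUB1, a checkpoint kinase, showed 107, 115 and 101 CPM in cytoplasm and 16.5, 43.4 and 39.9 CPM in nucleus (log2 1.05). ESPL1 fell by 1.87 (SE 0.18, adjusted p = 3.46e-07), with 58.0, 58.7 and 63.0 CPM against 142, 119 and 128 CPM, and INCENP by 1.45 (SE 0.17, adjusted p = 1.61e-06). KIF22 (log2 -0.96) and MKI67 (-0.67) were called lower as well, though their libraries overlapped in CPM, and with scaling by library total their changes were -0.27 and 0.03 and no longer called. MKI67 also lost its call in log2(TPM + 1), at -0.33 (adjusted p = 0.146, limma).

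Across the 3 cell types, 15 genes were called higher in cytoplasm in each: CENPA, CENPE, NDC80, SPC25, KIF11, KIF14, KIF18A, KIF20B, KIF23, AURKA, CCNA2, CDK1, PLK4, TTK and BUB3. NDC80, the microtubule-binding subunit of the outer kinetochore, may stand for them, with 34.1, 40.4 and 36.0 CPM in cytoplasm and 11.5, 11.0 and 13.0 CPM in nucleus of hPSC (log2 1.57), 38.1, 26.7 and 30.2 against 9.56, 5.54 and 10.6 CPM in ectoderm (log2 1.58) and 33.5, 32.9 and 27.1 against 2.15, 8.30 and 6.76 CPM in endoderm (log2 1.80). ESPL1 was the only mitosis gene called lower in each of the 3, a call not kept in ectoderm with the other scalings as given above. Shares of all genes called higher, or lower, in all 3 cell types are not given here, so neither count can be set beside one.

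**Figure D2:**
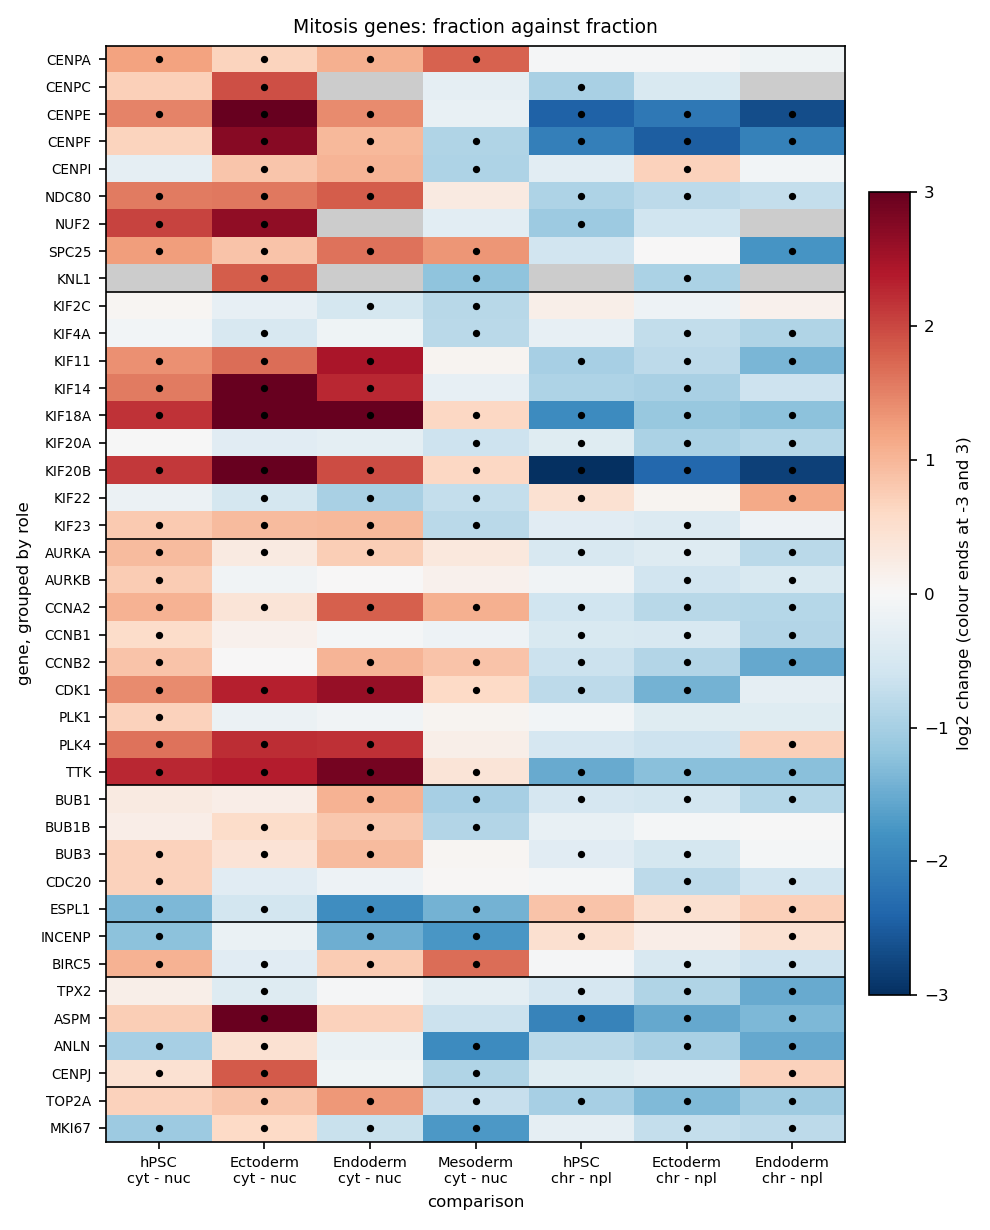
Log2 change of each mitosis gene (rows, grouped by role) between fractions within a cell type (columns), as colour that ends at -3 and 3. A dot marks a gene called at an adjusted p under 0.05 and grey a gene not listed or not tested. Cytoplasm against nucleus is mostly positive in hPSC, ectoderm and endoderm and mostly negative in mesoderm, where 16 genes were lower, and ESPL1 is negative in all 4.

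Mesoderm differed: 9 of 40 genes were higher in the libraries labelled cytoplasm and 16 lower, where 63.3% of all genes were called (31.9% higher, 31.4% lower). The median log2 change was -0.26, beside 0.00 over all genes. With log2(TPM + 1) tested by limma 2 genes were higher and 32 lower, without a share of all genes to set beside them. Mesoderm is also the cell type whose libraries labelled nucleus held few mitochondrial counts, and the part of this in the result was not tested. Higher in cytoplasm were CENPA, SPC25, KIF18A, KIF20B, CCNA2, CCNB2, CDK1, TTK and BIRC5. Of the 15 genes that were higher in the other 3 cell types, 7 were higher here too, 7 were not called and KIF23, a motor of the central spindle, was lower.

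CENPA, the histone that marks centromeres, had 24.9, 24.5 and 28.0 CPM in cytoplasm and 7.67, 7.66 and 9.04 CPM in nucleus of mesoderm (log2 change 1.77, SE 0.21, adjusted p = 3.25e-05, edgeR). BIRC5, survivin of the passenger complex, had 120.2, 120.4 and 125 CPM against 36.4, 44.4 and 42.6 CPM (log2 1.67, SE 0.18, adjusted p = 1.66e-05), and SPC25, of the NDC80 complex, rose by 1.33 (SE 0.28, adjusted p = 0.00144), a call lost in log2(TPM + 1), where its change was 0.26 (adjusted p = 0.470, limma). For each of these the 3 cytoplasm libraries lay above the 3 nucleus libraries. CCNA2, cyclin A2, rose by 1.05 (SE 0.22, adjusted p = 0.00145), but its change in log2(TPM + 1) was -0.08.

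ANLN had 54.9, 47.8 and 50.0 CPM in the cytoplasm of mesoderm and 196, 201 and 205 CPM in the nucleus (log2 -1.88, SE 0.14, adjusted p = 1.25e-06). INCENP had 18.9, 18.0 and 15.5 CPM against 64.8, 54.9 and 69.6 CPM (log2 -1.76, SE 0.22, adjusted p = 3.84e-05), and MKI67 83.2, 67.0 and 72.0 CPM against 275, 249.2 and 261 CPM (log2 -1.73, SE 0.20, adjusted p = 2.54e-05). ESPL1, at 44.2, 36.7 and 38.0 CPM against 124, 104 and 113 CPM, fell by 1.43 (SE 0.16, adjusted p = 1.83e-05). The nucleus libraries of these genes were all above the cytoplasm libraries. CENPF had 108, 88.5 and 89.8 CPM in cytoplasm against 172, 187 and 212 CPM in nucleus (log2 -0.90, adjusted p = 0.00528), TOP2A 274, 233 and 211 CPM against 399.6, 436 and 411 CPM (log2 -0.70), and BUB1 59.2, 56.6 and 52.8 CPM against 119, 132 and 111 CPM (log2 -1.01). These 3 genes were thus lower in the cytoplasm of mesoderm, whereas TOP2A and CENPF were higher in that of ectoderm.

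**Figure D3:**
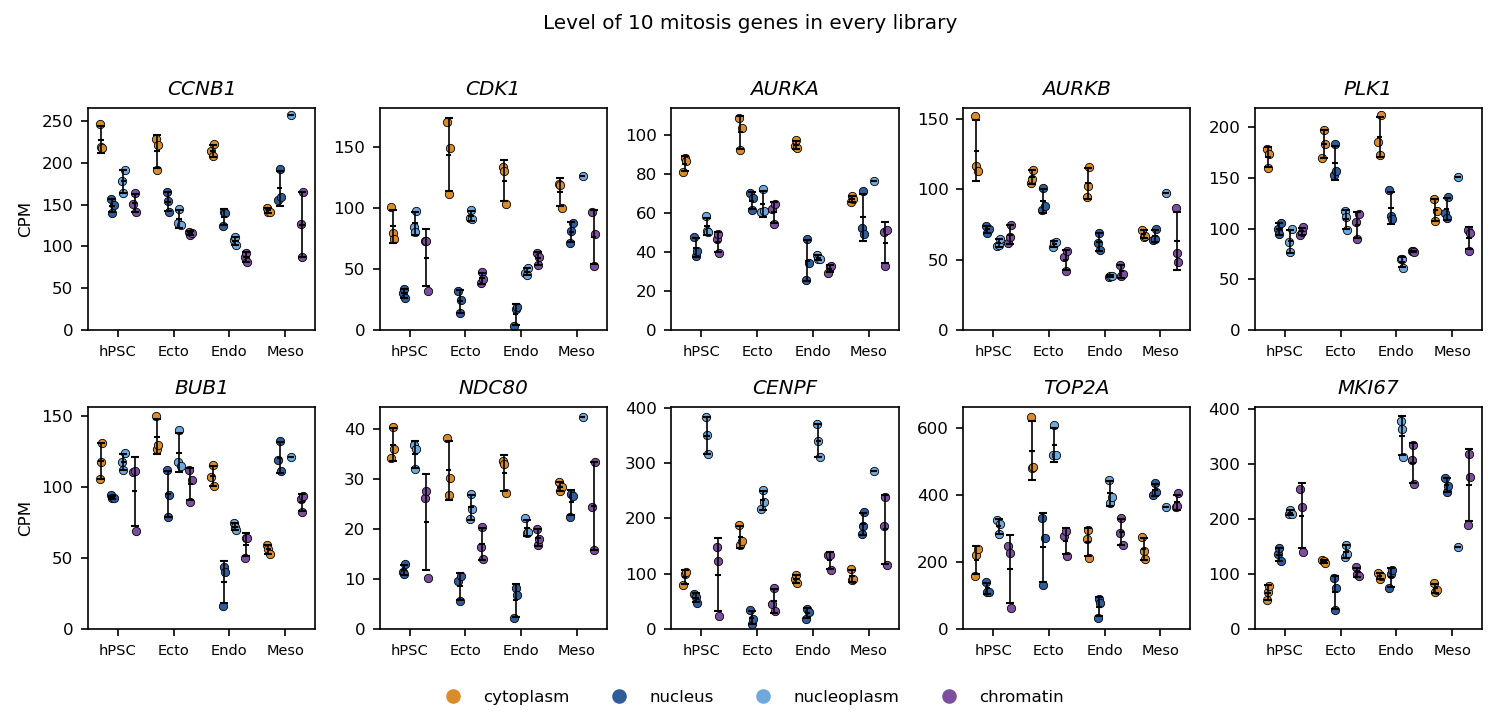
CPM of 10 mitosis genes (panels) in each library, by fraction and cell type, with the mean and SD as bars. The means of CDK1 and NDC80 are lowest in the nucleus of hPSC, ectoderm and endoderm, CENPF is highest in the nucleoplasm, and MKI67 in mesoderm is lowest in the cytoplasm.

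Between the nuclear sub-fractions, most mitosis mRNAs that differed were lower in chromatin than in nucleoplasm. In hPSC 3 of 39 genes were higher in chromatin and 20 lower, where 30.6% of all genes were called (17.3% higher, 13.4% lower), with a median log2 change of -0.51 beside 0.00 over all genes. In ectoderm 2 of 40 were higher and 27 lower, where 44.4% of all were called (18.6% higher, 25.8% lower), with a median of -0.67 beside -0.09. In endoderm 5 of 37 were higher and 23 lower, where 53.7% of all were called (23% higher, 30.7% lower), with a median of -0.79 beside -0.12. With scaling by library total the split was 4 higher and 9 lower in hPSC, 4 and 14 in ectoderm and 6 and 9 in endoderm, with medians of -0.28, -0.39 and -0.22 beside 0.23, 0.19 and 0.46 over all genes. With log2(TPM + 1) it was 10 and 7, 6 and 5, and 6 and 10, with medians of 0.06, 0.02 and -0.13 beside 0.47, 0.49 and 0.40. The direction of the median thus followed the scaling in hPSC and ectoderm, while under each of the 3 scalings the median of the mitosis genes lay below that of all genes. In hPSC 11 genes were called without the first nucleoplasm library in place of 23. Mesoderm, with 1 nucleoplasm library, was not tested.

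Under TMM scaling 16 genes were lower in chromatin in all 3 cell types: CENPE, CENPF, NDC80, KIF11, KIF18A, KIF20A, KIF20B, AURKA, CCNA2, CCNB1, CCNB2, TTK, BUB1, TPX2, ASPM and TOP2A. With the other scalings fewer genes were lower in each cell type, as given above. The share of all genes lower in all 3 is not given here. KIF20B had 47.8, 43.3 and 44.3 CPM in nucleoplasm and 5.32, 4.44 and 1.32 CPM in chromatin of hPSC, a log2 change of -3.82 (SE 0.35, adjusted p = 5.99e-05, edgeR), and its groups lay far apart. CENPF had 383, 350 and 315 CPM against 148, 124 and 23.4 CPM (log2 -2.06, SE 0.44, adjusted p = 0.00393), with the third chromatin library well below the other two. That library was also the lowest of its group for TOP2A, at 63.6 CPM beside 248 and 227 CPM, and for TTK, at 6.70 CPM beside 30.4 and 25.2 CPM. CENPE fell by 2.44 (SE 0.26, adjusted p = 0.000136) and ASPM, a protein of the spindle poles, by 2.00 (SE 0.42, adjusted p = 0.00381).

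In ectoderm the largest falls were those of CENPF (log2 -2.46, SE 0.33, adjusted p = 8.06e-05, edgeR), KIF20B (-2.36, SE 0.28, adjusted p = 3.94e-05), CENPE (-2.15, SE 0.38, adjusted p = 0.000588) and ASPM (-1.53, SE 0.39, adjusted p = 0.00651). CENPF stood there at 217, 252 and 229 CPM in nucleoplasm and 45.3, 74.0 and 32.2 CPM in chromatin. In endoderm they were KIF20B (-2.80, SE 0.42, adjusted p = 5.11e-05), CENPE (-2.65, SE 0.43, adjusted p = 0.000103), CENPF (-2.02, SE 0.16, adjusted p = 9.51e-08) and ANLN (-1.53, SE 0.22, adjusted p = 3.38e-05). CENPF had 371, 341 and 310 CPM there in nucleoplasm against 133, 134 and 107 CPM in chromatin, so in all 3 cell types its nucleoplasm libraries were above every chromatin library. In the single nucleoplasm library of mesoderm CENPF had 285 CPM, beside 186, 239 and 116 CPM in chromatin.

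ESPL1 was higher in chromatin in all 3 cell types tested, the only mitosis gene to be so under TMM scaling. It had 62.2, 63.6 and 67.5 CPM in nucleoplasm and 114, 120.1 and 175 CPM in chromatin of hPSC (log2 0.84, SE 0.14, adjusted p = 0.00109, edgeR). In ectoderm it had 42.3, 43.0 and 43.9 against 81.3, 60.5 and 78.7 CPM (log2 0.48, SE 0.10, adjusted p = 0.00237), and in endoderm 77.2, 70.7 and 69.9 against 169, 197 and 171 CPM (log2 0.73, SE 0.18, adjusted p = 0.00305). The groups did not overlap in any of the 3. In mesoderm, without a test, it had 59.6 CPM in nucleoplasm and 123, 157 and 132 CPM in chromatin.

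KIF22 was higher in the chromatin of endoderm, with 68.4, 68.9 and 67.7 CPM in nucleoplasm and 215, 233 and 223 CPM in chromatin (log2 1.14, SE 0.12, adjusted p = 2.06e-06), and PLK4, the kinase that starts centriole duplication, rose there by 0.72 (SE 0.19, adjusted p = 0.00583). Other rises were less stable. That of KIF22 in hPSC (log2 0.46, adjusted p = 0.0182) lost its call without the first or the third nucleoplasm library or the third chromatin library, with a highest adjusted p of 0.0840. That of INCENP in hPSC (0.47, adjusted p = 0.0459) was lost in 5 of 6 fits, with an adjusted p of up to 0.244, and kept only without the second chromatin library. That of CENPI, an inner kinetochore gene, in ectoderm (0.69, adjusted p = 0.0225) was lost without any 1 of the 3 nucleoplasm libraries, with an adjusted p of up to 0.0530, and that of CENPJ, a centriole gene, in endoderm (0.69, adjusted p = 0.0299) without any 1 of the 3 nucleoplasm libraries or the second chromatin library, with an adjusted p of up to 0.118.

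Isoforms of KIF22 and ESPL1 differed between fractions. KIF22 lies at chromosome 16, 29790719 to 29805385, on the plus strand of GRCh38. Its transcript KIF22-201, the coding form of 14 exons and 2113 bases in GENCODE, made up 74.8% of the gene's counts in cytoplasm and 30.3% in chromatin of hPSC, and 76.9% and 22.4% in ectoderm, 89.6% and 24.9% in endoderm, and 73.8% and 23.1% in mesoderm. In chromatin the larger share fell, in each cell type, on 1 isoform of its own assembly that matched no GENCODE transcript. In the same order of cell types, these isoforms took 57.1%, 53.5%, 75.1% and 55.7% of the gene's counts, against 22.0%, 17.2%, 10.4% and 19.7% in cytoplasm. They were not matched to each other between assemblies. The endoderm isoform had 26.0, 21.7 and 25.2 CPM in nucleoplasm and 154, 179 and 172 CPM in chromatin (log2 2.03, SE 0.30, adjusted p = 0.000515, edgeR over all isoforms). It also had 12.4, 12.5 and 16.2 CPM in cytoplasm and 29.8, 108 and 96.6 CPM in nucleus, a log2 change of -2.90 (SE 0.31, adjusted p = 3.18e-05). The coding form was thus the major one in cytoplasm and a minor one in chromatin in each cell type. A KIF22 transcript annotated as retaining an intron, KIF22-205, had 1.80, 4.01 and 4.51 CPM in cytoplasm and 11.5, 12.6 and 10.8 CPM in nucleus of hPSC (log2 -1.77, SE 0.34, adjusted p = 0.00207).

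ESPL1 lies at chromosome 12, 53268299 to 53293643, on the plus strand. Its retained-intron transcript ESPL1-203 had 7.01, 9.27 and 9.68 CPM in nucleoplasm and 21.4, 23.7 and 37.5 CPM in chromatin of hPSC (log2 1.39, SE 0.22, adjusted p = 0.00707, edgeR over all isoforms). In endoderm an ESPL1 isoform that matched no GENCODE transcript had 8.86, 7.16 and 4.12 CPM in nucleoplasm and 58.2, 68.5 and 63.8 CPM in chromatin (log2 2.47, SE 0.34, adjusted p = 0.000324), and it was lower in cytoplasm than in nucleus by 2.79 (SE 0.34, adjusted p = 8.60e-05). For both isoforms every chromatin library was above every nucleoplasm library.

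Among all isoforms of the mitosis genes, 26 of 79 tested were higher in the cytoplasm of hPSC and 9 lower, where 39.7% of all isoforms were called (19.6% higher, 20% lower). The counts were 30 higher and 2 lower of 96 in ectoderm (7.03% and 6.62% of all isoforms, 13.7% together), 23 and 8 of 64 in endoderm (19.3% and 22.9%, 42.1% together) and 11 and 24 of 104 in mesoderm (15.3% and 16.8%, 32% together). In chromatin against nucleoplasm they were 2 and 11 in hPSC (6.08% and 3.67% of all isoforms, 9.75% together), 3 and 25 in ectoderm (4.51% and 9.37%, 13.9% together) and 4 and 25 in endoderm (11.8% and 18.1%, 29.9% together). With scaling by library total the chromatin counts were 5 and 7 in hPSC, 5 and 14 in ectoderm and 10 and 10 in endoderm, and the mesoderm counts 4 and 28. In chromatin of hPSC 3 isoforms were called without the first nucleoplasm library and 6 without the second or the third, in that of ectoderm 18 without the third nucleoplasm library, and in mesoderm 21 without the first nucleus library, 22 without the third cytoplasm library and 23 without any 1 of the third nucleus and the first and second cytoplasm libraries. The main isoform of CDK1 rose by 2.30 in the cytoplasm of hPSC (adjusted p = 0.0019, edgeR), that of TTK by 3.09 and that of KIF18A by 3.30 in endoderm, and that of BIRC5 by 1.98 in mesoderm, from 36.4 ± 4.85 to 113 ± 2.53 CPM (SD, n = 3). Some isoforms were at 0 in every library of a group, so only a bound can be given: against a floor of 3 counts, a NUF2 isoform was at least 50.9-fold and a KIF20B isoform at least 43.8-fold higher in the cytoplasm of ectoderm, and a CENPA isoform at least 29-fold higher in that of hPSC.

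Isoforms without a GENCODE transcript took a larger share of the mitosis genes' counts in chromatin than in cytoplasm. Their share in chromatin was 19.0 ± 3.5% (SD, n = 3) in hPSC against a mean of 7.56% in cytoplasm, 15.7 ± 0.50% against 6.93% in ectoderm, 36.9 ± 0.64% against 11.1% in endoderm, and 19.9 ± 3.0% against 9.04% in mesoderm. Over all other genes the shares in the same order were 21.9%, 34.6%, 35.0% and 29.1% in chromatin and 15.3%, 20.2%, 18.5% and 17.6% in cytoplasm. The mitosis genes thus had a lower share than other genes in the cytoplasm of each cell type, a description with no test.

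**Figure D4:**
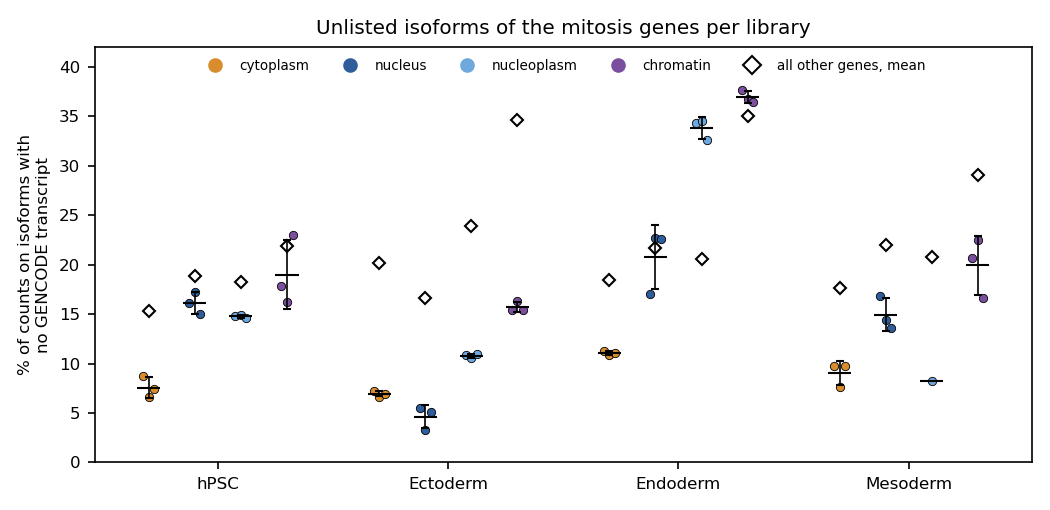
Share of the mitosis genes' counts on assembled isoforms with no GENCODE transcript (vertical axis, percent) in each library, by fraction and cell type. Points are libraries, bars the mean with the SD, and diamonds the mean over all other genes. The share is highest in the chromatin and nucleoplasm of endoderm (36.9% and 33.8%) and at most 11.1% in the cytoplasm means.

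Compared with hPSC in the libraries labelled cytoplasm, ectoderm held more of many mitosis mRNAs and mesoderm less of many. In endoderm more genes were lower than higher under TMM scaling only, and in mesoderm the split was near even with log2(TPM + 1). The 37 genes listed in all 4 tables summed to a mean of 3130 CPM in hPSC. The sum was 4103 CPM in ectoderm, 3169 in endoderm and 2651 in mesoderm. Tests ran on the 10701 genes listed in all 4 tables, and they share the hPSC libraries. Each gene is the sum over the isoforms of that cell type's own assembly, so the cell type and its assembly cannot be told apart. In ectoderm 18 of 37 genes were higher than in hPSC and 8 lower, where 76.1% of all genes were called (39.1% higher, 37% lower), with a median of 0.19 beside 0.04 over all genes. In endoderm 4 were higher and 18 lower, where 59.7% of all were called (27.5% higher, 32.2% lower), with a median of -0.22 beside -0.05. In mesoderm 9 were higher and 17 lower, where 68.1% of all were called (35% higher, 33.1% lower), with a median of -0.22 beside 0.01. With scaling by library total the splits were 19 and 3 in ectoderm, 7 and 7 in endoderm and 9 and 13 in mesoderm, and with log2(TPM + 1) they were 18 and 2, 7 and 4, and 9 and 10. The excess of lower genes in endoderm under TMM was thus absent with these 2 scalings. That in mesoderm was smaller with library totals and nearly absent with log2(TPM + 1).

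In ectoderm 6 of 9 motors were higher and 2 lower, and 3 of 5 checkpoint and anaphase genes were lower and none higher. CENPE had 7.32, 5.95 and 6.77 CPM in the cytoplasm of hPSC and 77.6, 48.9 and 54.0 CPM in that of ectoderm (log2 change 3.11, SE 0.19, adjusted p = 1.22e-09, edgeR). KIF20A, a motor of cytokinesis, had 52.3, 64.6 and 71.9 against 196, 200.3 and 188 CPM (log2 1.57, SE 0.11, adjusted p = 8.89e-09). CENPI rose by 2.11 (SE 0.16, adjusted p = 1.78e-08) and INCENP by 1.69 (SE 0.14, adjusted p = 3.31e-08). Each ectoderm library was above each hPSC library for these genes. The assemblies held 13 CENPE isoforms in ectoderm and 2 in hPSC, and 12 and 2 of CENPI, and the part of this in both rises was not tested. SPC25 (log2 -0.79), BUB3, a checkpoint protein (-0.78), and BUB1B, or BUBR1, of the checkpoint complex (-0.65), were lower. BUB1B lost its call in log2(TPM + 1), with a change of -0.34 (adjusted p = 0.0795, limma). BIRC5 was called lower by 0.30 (adjusted p = 0.00754), but not with the other scalings nor without the second cytoplasm library of hPSC (log2 -0.23, adjusted p = 0.0512).

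In endoderm KIF14, a motor that recruits citron kinase to the midbody, had 4.25, 5.29 and 2.63 CPM in cytoplasm against 15.5, 18.1 and 18.1 CPM in hPSC (log2 -2.31, SE 0.21, adjusted p = 3.01e-07, edgeR). KIF20B (-1.34), ASPM (-0.80) and BUB3 (-0.78) were lower too, though KIF20B was not called in log2(TPM + 1), with a change of -0.20 (adjusted p = 0.520, limma), and all 4 of the checkpoint and anaphase genes called were lower. CENPI rose by 1.18, ANLN by 0.79 and KIF20A by 0.50. MKI67, at 101, 91.8 and 96.3 CPM against 52.2, 68.3 and 79.3 CPM, was called higher by 0.31 (adjusted p = 0.0415). That call was lost in 5 of 6 fits that leave out 1 library, with values of 0.17 to 0.43 and an adjusted p of up to 0.145, and kept only without the third hPSC library.

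In mesoderm all 5 of 5 checkpoint and anaphase genes and 6 of 9 kinases and cyclins were lower in cytoplasm than in hPSC. BUB1 had 59.2, 56.6 and 52.8 CPM against 105, 118 and 131 CPM (log2 -1.12, SE 0.10, adjusted p = 1.06e-07, edgeR), and its groups did not overlap. AURKB fell by 0.95, BUB3 by 0.93 and BUB1B by 0.89. CENPI rose by 2.02 (SE 0.16, adjusted p = 5.73e-08), KIF20B by 1.64 (SE 0.27, adjusted p = 8.37e-05) and ANLN by 0.96 (SE 0.15, adjusted p = 4.81e-05). ASPM rose by 1.22 on the count scale (adjusted p = 2.45e-06), but its change in log2(TPM + 1) was -0.28. CENPI was among the 4 largest rises of each germ layer in cytoplasm, at a mean of 5.18 CPM in hPSC against 23.5, 13.8 and 21.9 CPM in ectoderm, endoderm and mesoderm, and the 3 values share the hPSC libraries. Endoderm held 1 assembled CENPI isoform and mesoderm 6.

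**Figure D5:**
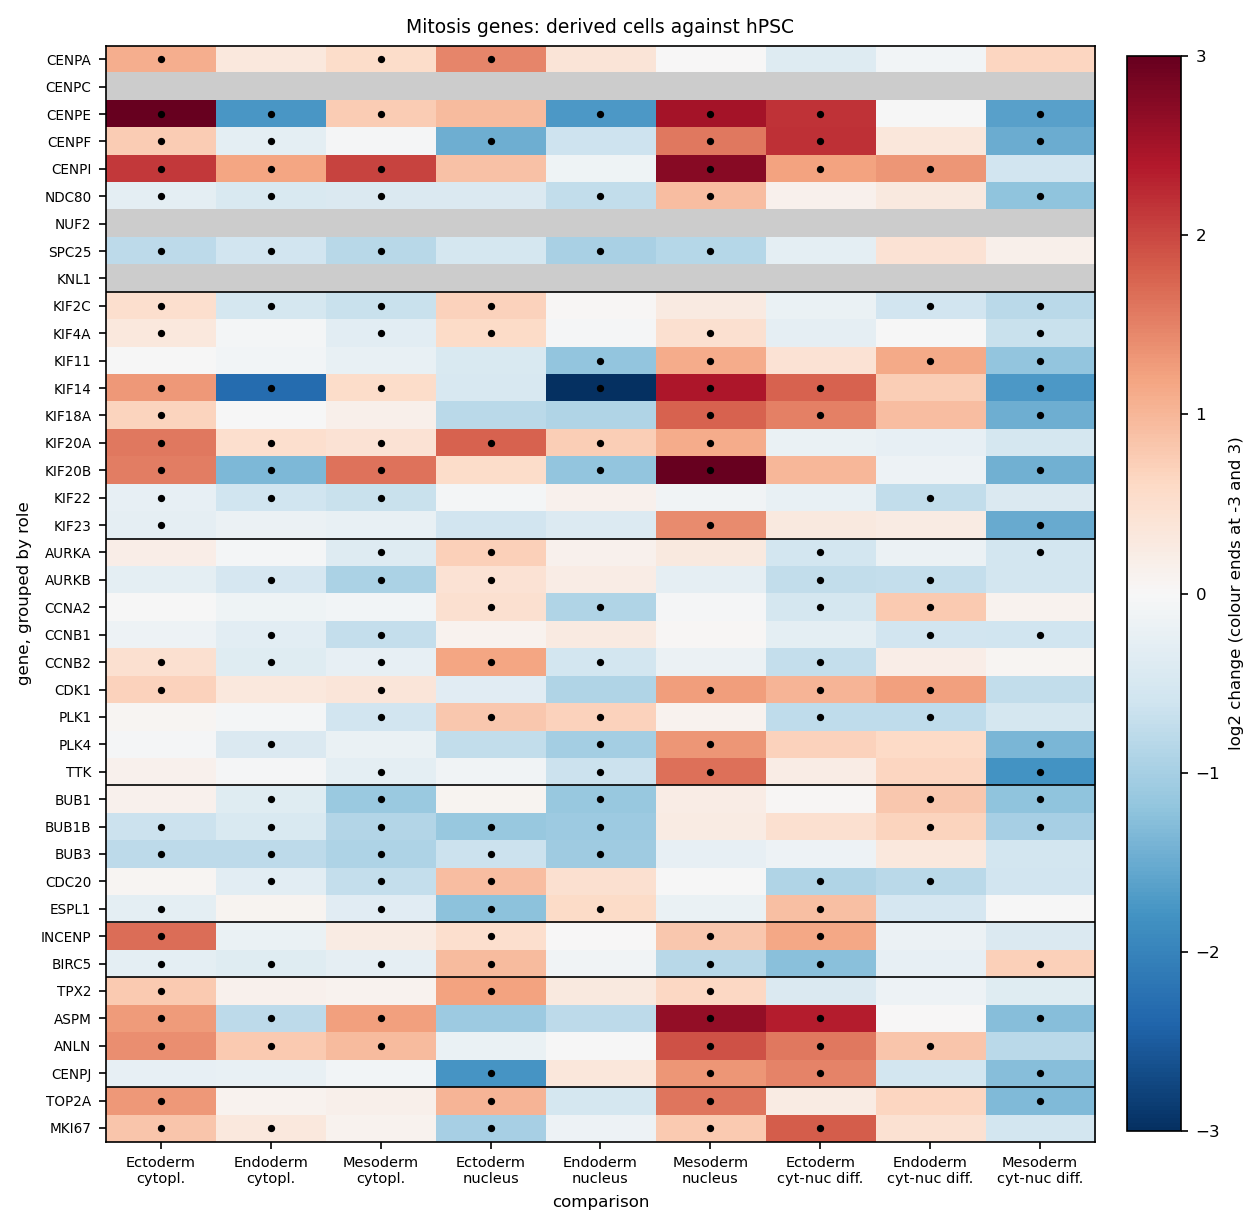
Log2 change of each mitosis gene (rows, grouped by role) in the 3 germ layers against hPSC in cytoplasm and nucleus, and the difference of the cytoplasm-to-nucleus change from that in hPSC (columns), as colour that ends at -3 and 3. A dot marks a gene called at an adjusted p under 0.05. The nucleus column of mesoderm is mostly positive (21 higher, 2 lower) and its difference column mostly negative (1 higher, 19 lower).

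In the libraries labelled nucleus, mesoderm stood apart from hPSC. There 21 of 37 genes were higher and 2 lower, where 54% of all genes were called (26.1% higher, 27.9% lower), with a median log2 change of 0.79 beside -0.01 over all genes, and 7 of 9 motors and 4 of 4 spindle, centriole and cytokinesis genes were higher. KIF20B had 21.6, 22.4 and 26.7 CPM in mesoderm and 2.29, 2.22 and 2.22 CPM in hPSC (log2 3.23, SE 0.30, adjusted p = 1.05e-06, edgeR). ASPM had 57.5, 61.6 and 77.4 against 11.5, 9.09 and 7.55 CPM (log2 2.64, SE 0.44, adjusted p = 0.000195), CENPI rose by 2.74 (SE 0.41, adjusted p = 9.21e-05) and CENPE, with 3 assembled isoforms in mesoderm, by 2.5 (SE 0.50, adjusted p = 0.000804). Every mesoderm library was above every hPSC library for these. SPC25 (-0.85, adjusted p = 0.0143) and BIRC5 (-0.83, adjusted p = 0.00207) were lower, but in log2(TPM + 1) their changes were 0.22 and 0.08, and SPC25 lost its call without the first nucleus library of mesoderm (log2 -0.65, adjusted p = 0.0812). With log2(TPM + 1) 34 genes were higher and none lower. The shares of all genes above belong to the TMM scaling, and those with log2(TPM + 1) are not given here.

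In the nucleus of ectoderm 14 of 37 genes were higher than in hPSC and 6 lower, where 57.7% of all genes were called (28.8% higher, 28.9% lower), with a median of 0.08 beside -0.01. With log2(TPM + 1) the split was 8 higher and 9 lower. KIF20A, with 178, 214 and 184 against 63.7, 56.3 and 60.6 CPM, rose by 1.76 (SE 0.17, adjusted p = 1.17e-06, edgeR), CENPA by 1.46, TPX2 by 1.20 and CCNB2 by 1.18. The rise of CENPA was 0.20 in log2(TPM + 1) and not called there (adjusted p = 0.478, limma). CENPJ fell by 1.76, CENPF by 1.46, ESPL1 by 1.22 and BUB1B by 1.15. In the nucleus of endoderm 3 of 37 genes were higher and 13 lower, where 57% of all genes were called (28.8% higher, 28.3% lower), with a median of -0.40 beside -0.02, and 10 were called without the first nucleus library of endoderm. With scaling by library total the split was 1 higher and 16 lower, and with log2(TPM + 1) 1 and 14. KIF11 fell by 1.19, BUB1 by 1.15, BUB1B by 1.10 and BUB3 by 1.07, and KIF20A rose by 0.75 (SE 0.17, adjusted p = 0.00202). The rises of PLK1 (0.70) and ESPL1 (0.57) were lost with the other scalings and without the first nucleus library of endoderm, where they were 0.38 (adjusted p = 0.0504) and 0.31 (adjusted p = 0.0529).

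Whether the change from nucleus to cytoplasm differed between a germ layer and hPSC was tested with an interaction term, as the difference of the 2 log2 changes. In mesoderm 1 of 37 genes had a larger change toward cytoplasm than in hPSC and 19 a smaller one, where 25.3% of all genes were called (18.5% larger, 6.79% smaller), with a median difference of -0.66 beside 0.18 over all genes. TTK differed by -1.79 (SE 0.25, adjusted p = 4.71e-05, edgeR), since its 41.0, 34.7 and 36.1 CPM in cytoplasm of mesoderm stood beside 29.1, 28.1 and 33.9 CPM in nucleus, a far smaller gap than in hPSC. KIF23 differed by -1.51 (SE 0.27, adjusted p = 0.000475) and KIF14 by -1.73 (SE 0.45, adjusted p = 0.00838). In ectoderm 12 genes had a larger change and 7 a smaller one, where 52.4% of all genes were called (26.3% larger, 26.1% smaller), and 11 genes were called without the second nucleus library of ectoderm. The split was 14 larger and 1 smaller with log2(TPM + 1). Larger were ASPM (2.36, SE 0.47, adjusted p = 0.000337), CENPF (2.20, SE 0.30, adjusted p = 6.83e-06), CENPE (2.17, SE 0.53, adjusted p = 0.00186) and MKI67 (1.82, SE 0.26, adjusted p = 9.82e-06), and smaller was BIRC5 (-1.26, SE 0.22, adjusted p = 0.00012). MKI67 had 126, 124 and 121 CPM in cytoplasm and 92.3, 34.2 and 75.3 CPM in nucleus of ectoderm, the reverse order of its hPSC levels. In endoderm 7 genes had a larger change and 6 a smaller one, where 38.6% of all genes were called (20% larger, 18.6% smaller). With scaling by library total or with log2(TPM + 1), 13 were larger and none smaller. Shares of all genes called under these scalings are not given, here or for ectoderm. Whether such splits are particular to the mitosis genes was thus not tested. The endoderm count was 7 without the first nucleus or the first cytoplasm library of endoderm and 8 without the first cytoplasm library of hPSC.

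Related genes of mitosis and the cell cycle that are not among the 40 were counted in 6 lists, for cytoplasm against nucleus. Over all genes, 35.2% were higher and 30.4% lower in hPSC, 27.5% and 26.8% in ectoderm, 34.4% and 35.6% in endoderm, and 31.9% and 31.4% in mesoderm. Cohesin and shugoshin genes, whose products hold sister chromatids together, were higher for 8 of 10 genes in hPSC (1 lower), 9 of 10 in ectoderm (0 lower), 8 of 9 in endoderm (1 lower) and 3 of 10 in mesoderm (1 lower). Other kinetochore and checkpoint genes were higher for 14 of 22 in hPSC (2 lower), 12 in ectoderm (2 lower), 16 in endoderm (2 lower) and 15 in mesoderm (3 lower). Their median in mesoderm was 0.83, against -0.26 for the 40 mitosis genes. Condensin genes, which compact chromosomes, were higher for 4 of 8 in hPSC (1 lower), 4 of 8 in ectoderm (2 lower), 4 of 7 in endoderm (3 lower) and 0 of 8 in mesoderm (2 lower). Genes of the anaphase-promoting complex, the ubiquitin ligase that ends mitosis, were higher for 11 of 16 in hPSC (2 lower) and for 7, 8 and 8 of 17 in ectoderm, endoderm and mesoderm (4, 3 and 6 lower). Genes of mitotic entry were higher for 7 of 12 in hPSC (1 lower), 2 in ectoderm (5 lower), 3 in endoderm (3 lower) and 7 in mesoderm (1 lower), so their counts in ectoderm leaned the other way from those of the 40 genes. G1 and S phase genes were higher for 10 of 14 in hPSC (1 lower), 4 of 13 in ectoderm (3 lower), 9 of 12 in endoderm (0 lower) and 7 of 14 in mesoderm (0 lower). Against hPSC in cytoplasm, 16 of the 22 other kinetochore genes were lower in ectoderm, 16 in endoderm and 13 in mesoderm, with 1, 2 and 2 higher, where 37%, 32.2% and 33.1% of all genes were lower.

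Transcript length varied among the mitosis genes, and longer and shorter genes stood apart in ectoderm and mesoderm, less so in hPSC and endoderm. Their longest coding transcripts ran from 1254 to 12678 bases with a median of 3664. In ectoderm the 20 genes with the shorter transcripts had a median log2 change of 0.16 from nucleus to cytoplasm and the 20 with the longer ones 1.74. In mesoderm the medians were 0.10 and -0.76, in endoderm 0.76 and 0.96, and in hPSC 0.81 and 0.70. Spearman's rho between length and the change over the mitosis genes was 0.35 in ectoderm (n = 40), -0.52 in mesoderm (n = 40), -0.19 in hPSC (n = 39) and -0.04 in endoderm (n = 37), and over all genes 0.11, -0.39, -0.34 and -0.05. The values come from the same libraries, genes are not independent replicates, and the part of length in the results was not tested.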

How the data were processed

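RNA of 4 cell fractions from H1 cells and 3 germ layers made from them was measured by RNA-seq in 46 libraries. The labels describe RNAzol extraction, NEBNext Ultra libraries and Illumina sequencing. The submitters' processing notes name STAR, RSEM and hg38, with no roles or versions, so the aligner's settings are not given in the sources used here. The authors deposited 1 table of counts per isoform for each cell type, on an assembly of its own. Its values are whole numbers, and they are taken as RSEM's estimated counts rounded by the authors, which the notes do not state. Tables of TPM deposited by the authors on the same isoforms were used for levels per length and as an alternative. An isoform's counts depend on how reads were split between isoforms, and strand use in counting is not given in the sources used here.

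Isoform counts were summed by Ensembl gene. Rows without an Ensembl gene, 2.638 to 4.069% of the counts of each table, entered the library totals and no test. CPM is of the library total. Tests used edgeR 4.0.16 in R 4.3.3 (filterByExpr with a minimum count of 10, TMM, quasi-likelihood F test, Benjamini-Hochberg adjustment over all genes, threshold 0.05), fitted on all libraries of a cell type for fractions, on all libraries of a fraction for cell types, and on cytoplasm and nucleus libraries together for the interaction, the last 2 over 10701 genes shared by the 4 tables. Tables of cell types come from separate assemblies, so isoforms were never compared between them, and gene sums depend on which isoforms each assembly holds. The alternatives were DESeq2 1.42.0, scaling by library total, no filter, a replicate block, limma 3.58.1 on log2(TPM + 1), a combined assembly for ectoderm and leaving out each library. The fits were tested on simulated data. Isoforms were matched to GENCODE release 29, and promoters came from RefSeq on GRCh38.p14.

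Per comparison, statistics are given for up to 4 genes that rose most and 4 that fell most, if called and if 1 group averaged 10 CPM or more, for up to 2 isoforms each way at 5 CPM or more without overlap, and levels of 10 genes picked from the roles. The 40 genes, their roles and the related lists were chosen with earlier results of these data known. Replicate numbers were checked, and the main tests treated the samples as unpaired. With so few numbered pairs, the check cannot show that samples of the same number were unrelated. Of 45 pairs of replicates, none had identical values, and the lowest chi-square per degree of freedom was 4.18. There were 2 columns that matched no sample, and they were not used.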

Additional observations from a re-analysis of the deposited data

Results flagged for a closer look

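Of 37 mitosis genes, the change from nucleus to cytoplasm differed from that in hPSC for 19 in ectoderm, 13 in endoderm and 20 in mesoderm. Each was tested with an interaction term in edgeR. Over all genes 52.4%, 38.6% and 25.3% were called in these comparisons, in the same order. The ectoderm and endoderm counts were thus near the share of all genes. Values are the difference of the log2 changes, germ layer minus hPSC, and all 3 sets share the hPSC libraries. In ectoderm the differences were 2.36 for ASPM, 2.20 for CENPF, 2.17 for CENPE, 1.82 for MKI67, -1.26 for BIRC5, -0.90 for CDC20 (adjusted p = 0.00838), -0.76 for PLK1 (adjusted p = 0.0216) and -0.74 for AURKB (adjusted p = 0.0101). The calls for CDC20, PLK1 and AURKB were lost without the second nucleus library of ectoderm, and that for PLK1 also without the first cytoplasm library. In log2(TPM + 1) none of the 3 was called, with differences of -0.28 for CDC20 (adjusted p = 0.258, limma), -0.15 for PLK1 (adjusted p = 0.566) and -0.099 for AURKB (adjusted p = 0.667).

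In endoderm the differences were 1.33 for CENPI (adjusted p = 0.0255), 1.24 for CDK1 (adjusted p = 0.0184), 1.14 for KIF11 (adjusted p = 0.0143), 0.83 for ANLN (adjusted p = 0.0350), -0.81 for CDC20 (adjusted p = 0.0224), -0.77 for PLK1 (adjusted p = 0.0295), -0.73 for KIF22 (adjusted p = 0.00193) and -0.72 for AURKB (adjusted p = 0.0183). Of 12 fits that leave out 1 library each, the call was lost in 6 for ANLN, 6 for PLK1, 4 for CDC20, 3 for CENPI and 3 for AURKB. The calls for CDC20, PLK1, KIF22 and AURKB were also lost with scaling by library total, at -0.15, -0.11, -0.15 and -0.093, and in log2(TPM + 1), at -0.080, -0.028, 0.0095 and 0.017.

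In mesoderm the differences were 0.71 for BIRC5 (adjusted p = 0.0247), -1.79 for TTK, -1.73 for KIF14, -1.62 for CENPE (adjusted p = 0.0248) and -1.51 for KIF23. The call was lost in 5 of 12 such fits for BIRC5 and in 3 for CENPE. That for BIRC5 was also lost with scaling by library total, at 0.46 (adjusted p = 0.0630), and its difference in log2(TPM + 1) was -0.11. TTK had 37.3 ± 3.31 CPM in cytoplasm and 30.4 ± 3.10 CPM in nucleus of mesoderm (SD, n = 3), and 44.0 ± 3.98 and 8.73 ± 1.44 CPM in hPSC.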

How the results depend on the processing

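Of the values for named genes and isoforms under the alternatives, 1585 kept their direction and call, 126 kept their direction and lost the call, and 8 turned. Of those for counts and sums, 242 stayed within their limits and 28 moved. The cause of these moves was not tested. Scaling by library total gave, for chromatin against nucleoplasm, 13 genes in hPSC, 18 for ectoderm and 15 for endoderm, and 14 for endoderm against hPSC in cytoplasm. With log2(TPM + 1) the counts were 11 for chromatin in ectoderm, 16 in endoderm, 11 for endoderm against hPSC in cytoplasm and 33 for the difference in mesoderm. With the authors' TPM summed without a log, the ratio of cytoplasm to nucleus levels was 1.18 in hPSC, 1.53 in endoderm and 0.428 in mesoderm. DESeq2 called 26 isoforms in chromatin of hPSC and 44 in that of ectoderm (10 higher, 34 lower).

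Turned values were those of MKI67 in endoderm, cytoplasm against nucleus (0.034 with library totals), and, with log2(TPM + 1), of CCNA2 in mesoderm (-0.081), ASPM of mesoderm against hPSC in cytoplasm (-0.28), SPC25 (0.22) and BIRC5 (0.081) in nucleus, KIF22 (0.0095) and AURKB (0.017) in the endoderm difference and BIRC5 in the mesoderm difference (-0.11).

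Without 1 library, counts ranged from 11 to 24 for chromatin in hPSC, 10 to 21 for endoderm against hPSC in nucleus, 11 to 21, 7 to 17 and 15 to 23 for the differences in ectoderm, endoderm and mesoderm, 3 to 16 isoforms for chromatin in hPSC, 18 to 20 in ectoderm and 21 to 29 for mesoderm. The other gene counts ranged from 26 to 27, 28 to 32, 25 to 28 and 21 to 24 for cytoplasm against nucleus in hPSC, ectoderm, endoderm and mesoderm.

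With the replicate number as a block, the genes called for cytoplasm against nucleus numbered 27 in hPSC and in endoderm, 29 in ectoderm and 25 in mesoderm. Of 146 named results 141 kept their call and 5 lost it, 4 of them isoforms and the other MKI67 of endoderm against hPSC in cytoplasm (0.32). In no comparison did every same-numbered pair correlate above 0.1, and only in ectoderm chromatin and nucleoplasm did every library correlate best with its own number.

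Low counts limit CENPE, KIF14 and KIF20B in endoderm, whose nucleus libraries were near or under 1 CPM.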
